A study of Mus musculus with 27 samples.

Results

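Sox9, Sox5, Sox6, Acan, Matn1, Matn3, Hapln1, Comp and Mia are regulators and non-collagen matrix genes of cartilage, and they were taken by symbol from the deposited table, in which they are 9 of 30153 genes. In cartilage, SOX9 is the transcription factor that chondrocytes need to form, and SOX5 and SOX6 are partner factors that act with it on matrix genes. The matrix these cells secrete holds aggrecan (Acan), a large proteoglycan tied to hyaluronan by the link protein HAPLN1. Matrilins and COMP, by contrast, connect collagen fibrils with the other components, and MIA is a small protein secreted by chondrocytes. Muscle and marrow are not cartilage tissues in health, whereas the periosteum holds progenitors that form cartilage when a fracture heals.

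The genes were followed in Prx1-derived cells of Prx1-CreER/Ai14/Rag1 mice, in which tamoxifen switches on the tdTomato reporter in cells with an active Prx1 promoter and in their progeny. The mice lacked Rag1, were 8 to 12 weeks old and of both sexes, and had received 2 doses of tamoxifen 48 hours apart, with the harvest 3 days later and with no other treatment in these groups. Periosteum, muscle and bone marrow of femur and tibia each gave 3 populations sorted without CD45. P1 carried CD200 and not CD105, P2 carried neither marker, and P3 carried CD105 with variable CD200. Each of these 9 groups had 3 libraries, 27 in all, and the deposited design states that the tissues were taken from the same animals without naming the animal behind each library. Libraries of different groups can thus share an animal, which the tests could not take into account, and their p values measure only the spread between these samples.

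Values are the authors' normalized counts. Library sums lay between 8631881 and 26230908, and 12396 to 21675 genes were above 0, while the read depth behind single values is unknown. The sorting genes followed the gates in most libraries. Eng, which encodes CD105, was 774 to 7328 in the P3 groups and 5.18 to 569 in the P1 and P2 groups, and Cd200 was 1025 to 7515 in P1 against 7.24 to 1107 in P2, where muscle P2 replicate 2 gave the highest value. Ptprc, the CD45 gene that the sort selected against, was at most 184 in periosteum and muscle and reached 829 in bone marrow P2. Markers of other cells were present in some groups. In P2 of the marrow, 9 erythroid markers made up 45.6% to 48.9% of a library, in P2 of the periosteum 24.8% to 39.7%, and elsewhere at most 4.83%. The 10 myofibril markers made up 11.2% to 12.4% of the muscle P2 libraries. Prrx1, the gene whose promoter drives the label, was 2377, 64.0 and 302 in the 3 libraries of periosteum P2. It was 90.8, 69.0 and 170 in bone marrow P2 and 725, 132 and 147 in bone marrow P3. The remaining groups ranged from 712 to 4578. In bulk samples fewer cells of a type and less RNA per cell cannot be told apart.

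Periosteum held the highest mean log2 levels of 7 of the 9 genes when P1, P2 and P3 of each tissue were weighed equally. The proteoglycan gene Acan, its link protein Hapln1, the matrilins Matn1 and Matn3, Comp, Mia and the regulator Sox9 were called higher in periosteum than in muscle, and none was called lower. A gene was called at an adjusted p below 0.05 in limma and an absolute log2 fold change above 1.5 on the log2(normalized count + 1) scale, and by this rule 3.19% of the 18442 genes tested were higher in periosteum and 17.2% lower. Over the 9 genes the log2 fold changes had a median of 3.60, against -0.56 over all genes. Against bone marrow, 6 of the 9 were called higher in periosteum and none lower, where 4.01% of all genes were higher and 16.8% lower. The medians were 5.72 for the 9 genes and -0.69 for all. Matn1 was not among the 6, and its log2 fold change of 2.80 was not called. Muscle exceeded bone marrow in 5 (Sox9, Sox5, Acan, Matn3 and Comp) and was lower in 1 (Sox6), beside 10.9% and 10.8% of all genes. Markers of other cells moved in the same contrasts. Against muscle, 6 of 8 osteoblast and 9 of 9 erythroid markers were higher in periosteum, and 10 of 10 myofibril, 8 of 8 endothelial, 5 of 7 Schwann and 5 of 6 satellite cell markers were lower. Against bone marrow, 6 of 9 erythroid and 8 of 10 leukocyte markers were lower and 4 of 8 tenocyte markers higher. Their part in the results was not tested. The count of 6 genes between muscle and bone marrow was 3 without bone marrow P2 replicate 2 and 3 without bone marrow P3 replicate 2. The 3 comparisons share groups, so their values are given side by side and not as separate evidence. Quantile normalization moved the all-gene medians to 0.014 and -0.097 for the first 2 comparisons, and all called genes kept their direction.

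**Figure D1:**
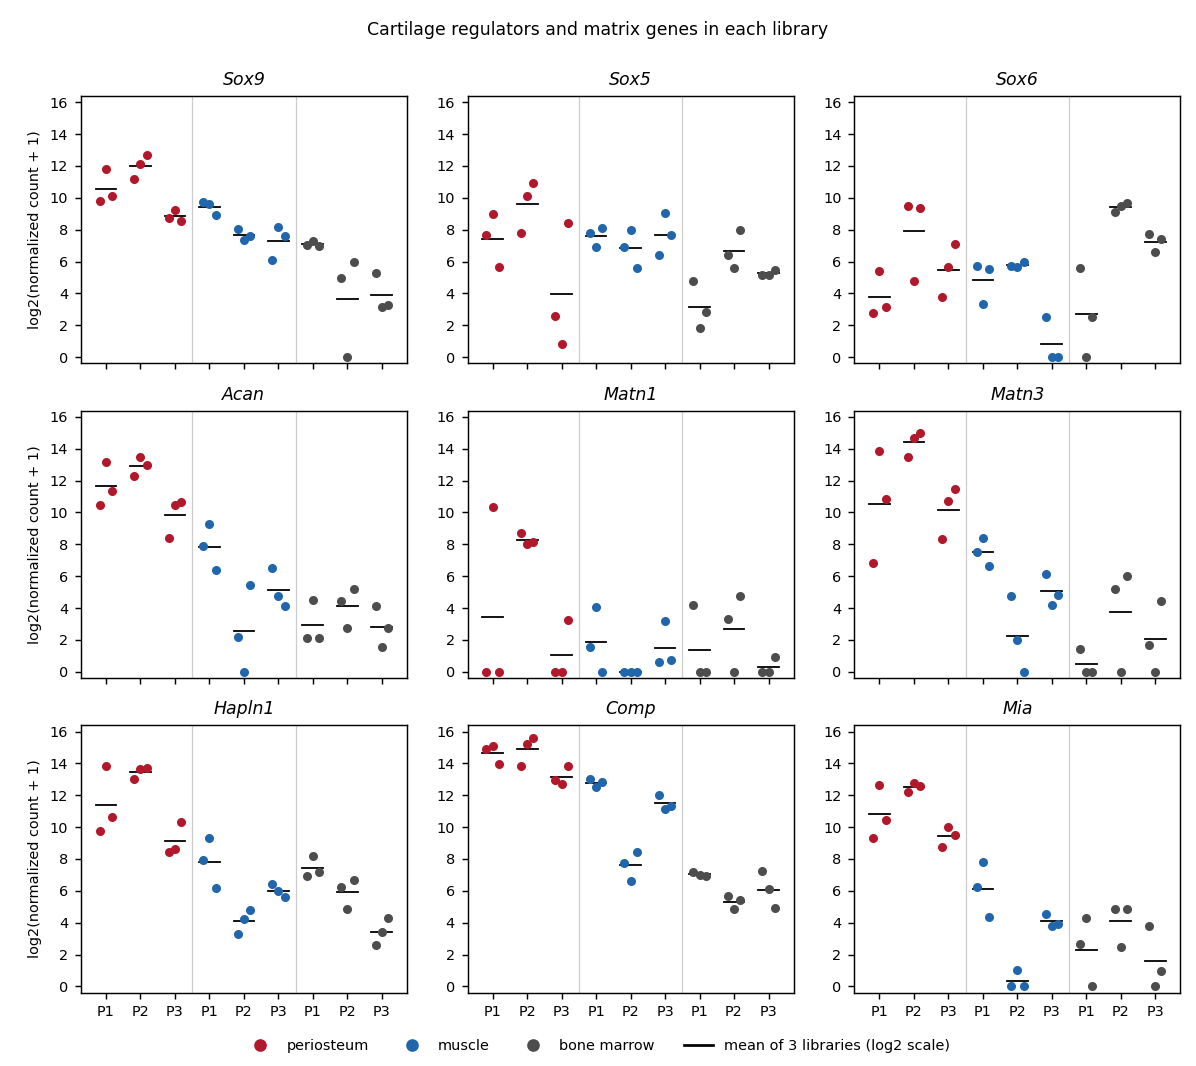
Each panel plots 1 gene as log2(normalized count + 1) in the 27 libraries, with P1, P2 and P3 of periosteum, muscle and bone marrow from left to right and a line at the mean of the 3 libraries of a group. Acan, Matn3, Hapln1, Comp and Mia were high in periosteum, Sox6 was highest in bone marrow P2, and Matn1 was above 25.5 normalized counts in the 3 libraries of periosteum P2 and 1 of periosteum P1 alone.

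**Figure D2:**
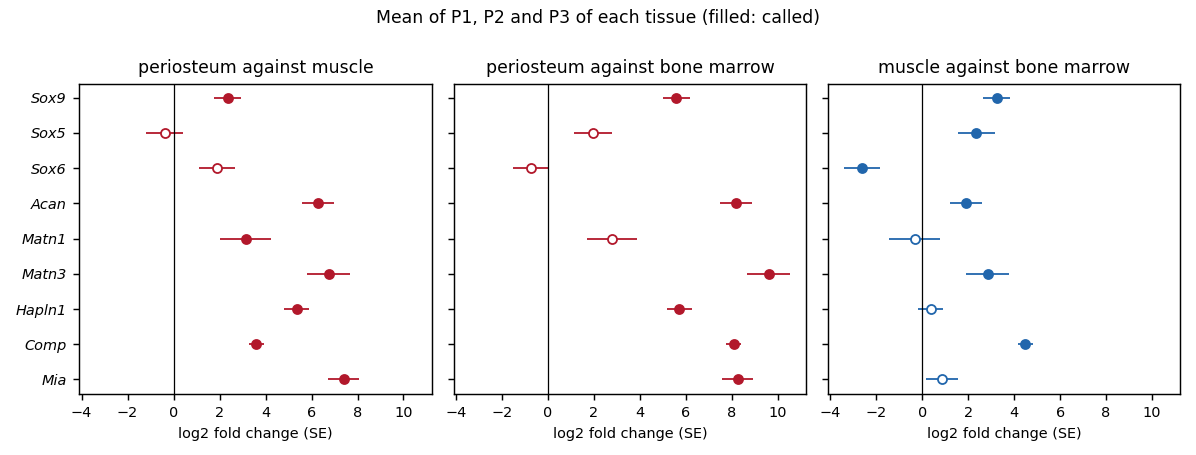
Log2 fold changes of the 9 genes between tissues, each the mean of P1, P2 and P3, with bars for the standard error and filled points for called genes. Against bone marrow the values of Acan, Matn3, Comp and Mia were 8.18, 9.61, 8.08 and 8.25, while Sox5 and Sox6 were not called in either comparison of periosteum.

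Among the regulators, Sox9 (chr11:112782224-112787760, plus strand, GRCm38) had its highest values in periosteum P2, with normalized counts of 2291, 4382 and 6556. Periosteum P1 gave 883, 3608 and 1119, and periosteum P3 gave 426, 604 and 377. The lowest periosteum library thus lay above all 9 bone marrow libraries, which ranged from 0 to 152. Muscle P1 had Sox9 values of 841, 779.6 and 478, which overlapped those of periosteum P3, and muscle P2 and P3 ranged from 68.8 to 287. On the log2 scale Sox9 was 2.34 higher in periosteum than in muscle (standard error 0.59, adjusted p = 0.00568), 5.59 higher than in bone marrow (standard error 0.59, adjusted p = 1.99e-07), and 3.25 higher in muscle than in bone marrow (standard error 0.59, adjusted p = 0.000172). Bone marrow P1, at 132, 152 and 125, had more Sox9 than the 2 other marrow groups, and the difference passed the test against P2 (log2 fold change 3.46, standard error 1.03, adjusted p = 0.0118) but not against P3 (adjusted p = 0.0596). Without bone marrow P2 replicate 2, listed at 0, the value against P2 was 1.64 and was no longer called.

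Sox5 (chr6:143828425-144781977, minus strand) encodes 1 of the SOX9 partners and spread widely within groups. Its counts were 219, 1087 and 1953 in periosteum P2, 204, 501 and 48.4 in periosteum P1, and 5.04, 0.736 and 345 in periosteum P3. Muscle libraries lay between 47.9 and 521 and bone marrow libraries between 2.59 and 252, so the tissues overlapped. The periosteum did not pass the test against muscle (log2 fold change -0.38, standard error 0.81, adjusted p = 0.759), a difference that was 0.29 after quantile normalization. Sox5 was called higher in muscle than in bone marrow (2.34, standard error 0.81, adjusted p = 0.0323), a call lost in 10 of its 37 alternatives, each of which left out 1 muscle or bone marrow library. It was also called higher in periosteum P2 than in periosteum P3 (5.66, standard error 1.40, adjusted p = 0.00736), although the libraries overlapped, and among the left-out libraries this was lost without periosteum P3 replicate 2. In GENCODE M21 an antisense gene, Sox5os1, shares 1330 of the 14376 exonic bases of Sox5, and the library kit does not mark strand, so reads of the 2 cannot be told apart.

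Sox6 (chr7:115470872-116038796, minus strand), the other partner, had a pattern of its own. It was highest in bone marrow P2, at 552, 726 and 833, and was 206, 97.1 and 170.1 in bone marrow P3 but 46.3, 0 and 4.64 in bone marrow P1. Periosteum P2 gave 726, 26.3 and 666, with replicate 2 far below the 2 others. In periosteum P1 the counts were 5.85, 41.1 and 7.77, in periosteum P3 12.5, 49.0 and 135, in muscle P1 and P2 they ranged from 8.96 to 61.7, and in muscle P3 they were 4.80, 0 and 0. The groups of bone marrow P1 and P2 did not overlap (log2 fold change of P1 against P2 -6.75, standard error 1.34, adjusted p = 0.000506), and periosteum P1 was called lower than periosteum P2 (-4.12, standard error 1.34, adjusted p = 0.0328) with overlapping libraries. Muscle was called lower than bone marrow (-2.63, standard error 0.78, adjusted p = 0.0128).

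SOX6 is also a known factor of red cell precursors, which makes the erythroid markers the values to set beside these. All 9 erythroid markers found were called lower in periosteum P1 than in P2. Together they took the 24.8% to 39.7% and 45.6% to 48.9% given above in P2 of periosteum and of bone marrow, but 3.30% to 4.83% in bone marrow P3 and 0.549% to 2.97% in bone marrow P1, and none of the 9 was at 0 in all 3 libraries of any group. Periosteum P2 replicate 2 had the highest share of its group, 39.7%, and the lowest Sox6. The part of erythroid RNA in the Sox6 values was not tested. Across the 27 libraries the genes most like Sox6 by Pearson's r were Metap2 (0.80), Csn3 (0.80) and Ifrd2 (0.80), and Sox6 had an r of -0.21 with Sox9 and 0.055 with Acan. These coefficients, given as a description, rest on libraries that share the 9 groups.

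**Figure D3:**
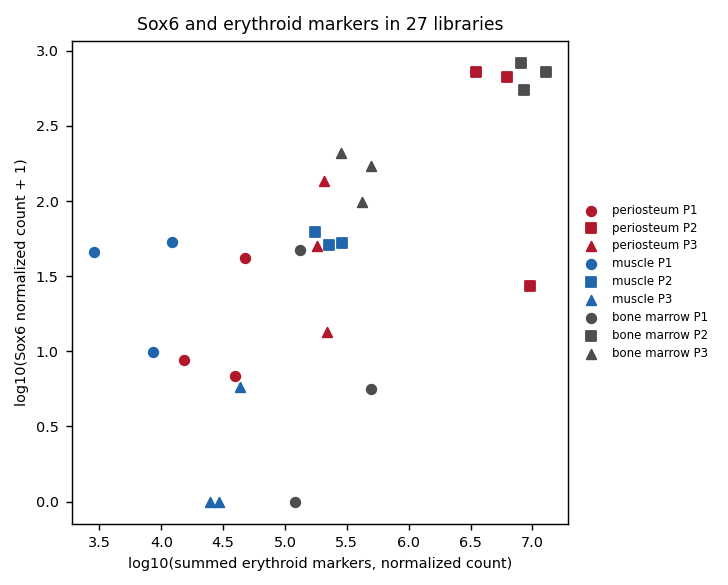
Sox6, as log10(normalized count + 1), against the summed normalized count of 9 erythroid markers on a log10 axis, 1 point per library, coloured by tissue and shaped by subpopulation. The 3 bone marrow P2 libraries and 2 periosteum P2 libraries lie together at the upper right, and the remaining periosteum P2 library has a Sox6 count of 26.3 at the highest sum of its group.

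Acan (chr7:79053483-79115099, plus strand) carries the chondroitin sulfate chains that hold water in cartilage. Periosteum P2 had 4937, 11478 and 7947 normalized counts, periosteum P1 had 1433, 9057 and 2622, and periosteum P3 had 332, 1423 and 1613. Muscle P1 came next with 232, 627 and 83.9 and overlapped periosteum P3, and muscle P2 (3.60, 0 and 42.4) and muscle P3 (89.0, 26.2 and 16.6) were lower still. The 9 bone marrow libraries lay between 1.93 and 35.6, and none reached the lowest periosteum value. The log2 fold change was 6.29 against muscle (standard error 0.69, adjusted p = 5.83e-07) and 8.18 against bone marrow (standard error 0.69, adjusted p = 4.86e-09). The value of muscle against bone marrow, 1.89 (standard error 0.69, adjusted p = 0.0445), fell short of the call in 16 of its 37 alternatives.

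Hapln1 (chr13:89539796-89611652, plus strand), whose product locks aggrecan to hyaluronan, gave 8323, 12848.5 and 13255 in periosteum P2, 860.3, 14468 and 1575.5 in periosteum P1, and 343, 396 and 1264 in periosteum P3. In bone marrow P1, where Acan was at most 21.3, Hapln1 was 122, 294 and 142, which overlapped muscle P1 at 239, 625 and 72.0. The other muscle and marrow groups ranged from 5.02 to 100.2. Periosteum exceeded muscle by 5.36 on the log2 scale (standard error 0.53, adjusted p = 1.23e-07) and bone marrow by 5.72 (standard error 0.53, adjusted p = 2.18e-08). Bone marrow P1 was called higher than bone marrow P3 by 4.0 (standard error 0.92, adjusted p = 0.00679), without overlap.

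Of the matrilins, Matn3 (chr12:8947929-8972028, plus strand), a filament-forming adaptor of the cartilage matrix, had the widest range. Its counts were 11651, 26100.2 and 32702 in periosteum P2, 113, 14626 and 1822 in periosteum P1 and 318, 1666 and 2902 in periosteum P3. Muscle P1 libraries (186, 341 and 97.4) overlapped those of periosteum P1, and bone marrow P1 had 1.69, 0 and 0. The log2 fold change was 6.75 against muscle (standard error 0.93, adjusted p = 1.19e-05) and 9.61 against bone marrow (standard error 0.93, adjusted p = 4.44e-08). Because the marrow values lie near 0, the second ranged from 8.25 to 11.2 over the other settings tried.

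Matn1 (chr4:130944385-130955475, plus strand), the matrilin first described in cartilage, was close to absent outside 4 libraries. Periosteum P2 had 409, 253 and 279 counts, and periosteum P1 had 1290.3 in replicate 2 and was listed at 0 in replicates 1 and 3. All 21 other libraries lay between 0 and 25.5, and muscle P2 was listed at 0 in all 3, so no fold is given against it. Periosteum P2 stood apart from muscle P2 (adjusted p = 0.00209), from bone marrow P2 (adjusted p = 0.038) and from periosteum P3 (adjusted p = 0.0114), without overlap in any of the 3. The call of periosteum against muscle (3.13, standard error 1.10, adjusted p = 0.0391) was lost in 13 of its 37 alternatives, and without periosteum P1 replicate 2 the log2 fold change was 1.99.

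Comp (chr8:70373558-70382066, plus strand) encodes a thrombospondin of cartilage, tendon and ligament, and it was not limited to periosteum. Periosteum P1 had 31039.5, 35207 and 15651 counts, P2 had 14414, 38674 and 50291, and P3 had 7838, 6620.1 and 14367. Muscle P1 (8459, 5847 and 7187) and muscle P3 (4150.4, 2206 and 2622) reached well above the marrow, whereas muscle P2 had 212, 98.03 and 345 and the 9 bone marrow libraries 27.98 to 148. Its log2 fold change was 3.60 against muscle (standard error 0.32, adjusted p = 2.47e-08), 8.08 against bone marrow (standard error 0.32, adjusted p = 1.10e-14), and 4.48 for muscle against bone marrow (standard error 0.32, adjusted p = 1.24e-10). Muscle P1 overlapped periosteum P3. Comp had the smallest standard error of the 9 genes. The genes most like it over the 27 libraries were Chad (r = 0.94), Fmod (0.93) and Mgp (0.92).

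Mia (chr7:27179742-27181157, minus strand) had 4709.8, 7022 and 6217 counts in periosteum P2, 646, 6436 and 1372 in P1 and 422, 1015 and 734 in P3. All 9 periosteum libraries lay above all 9 muscle libraries, of which the highest, muscle P1 replicate 2, had 223, and above all bone marrow libraries, which had 0 to 28.5. Muscle P2 had 0, 1.01 and 0. The log2 fold change was 7.40 against muscle (standard error 0.68, adjusted p = 3.95e-08) and 8.25 against bone marrow (standard error 0.68, adjusted p = 3.15e-09). A gene on the same strand, Gm21983, shares 410 of the 994 exonic bases of Mia, and it was listed at 0 in 26 of 27 libraries and at 56.2 in the other.

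Per kilobase of exon, the order of the mean levels in periosteum P2 was Comp (11614), Matn3 (7792), Mia (6019), Hapln1 (1944), Acan (1087), Sox9 (1066), Matn1 (157), Sox5 (75.6) and Sox6 (31.9 normalized counts per kb). In muscle P1 the order began with Comp (2415), Sox9 (169), Mia (106), Matn3 (69.0) and Hapln1 (52.9), so Comp stood further from the rest there. Sox6 was the lowest of the 3 regulators in muscle P1 at 2.39, yet in bone marrow P2 its 47.4 per kb exceeded the 8.91 of Sox5 and the 7.37 of Sox9.

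Sequence before RefSeq starts is shown for Acan, Matn3 and Sox5, and these starts can differ from the GENCODE gene starts given above. Acan and Matn3 are matrix genes higher in periosteum than in muscle and in bone marrow, with windows free of their own exons. The window of Sox5 holds a match to a SOX motif. RefSeq (GRCm38.p6) gave windows for 7 of the 9 genes, 12 windows of 250 bases in all, read 5′ to 3′ on the gene's strand, at chr7:79052976-79053225 (plus) for Acan, chr12:8947679-8947928 (plus) for Matn3 and chr6:143947107-143947356 (minus, within the gene and outside its exons) for Sox5. Capitals mark ACAAAG or ACAATG on either strand, the only motifs searched.
Acan: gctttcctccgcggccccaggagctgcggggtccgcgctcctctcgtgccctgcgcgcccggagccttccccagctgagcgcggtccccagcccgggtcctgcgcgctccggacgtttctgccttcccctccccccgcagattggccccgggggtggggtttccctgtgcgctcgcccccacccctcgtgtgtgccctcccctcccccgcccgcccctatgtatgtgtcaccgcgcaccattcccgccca
Matn3: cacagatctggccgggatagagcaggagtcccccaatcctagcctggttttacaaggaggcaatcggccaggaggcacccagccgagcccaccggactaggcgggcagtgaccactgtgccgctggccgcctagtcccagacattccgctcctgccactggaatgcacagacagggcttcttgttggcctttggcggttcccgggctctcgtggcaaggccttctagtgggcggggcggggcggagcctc
Sox5: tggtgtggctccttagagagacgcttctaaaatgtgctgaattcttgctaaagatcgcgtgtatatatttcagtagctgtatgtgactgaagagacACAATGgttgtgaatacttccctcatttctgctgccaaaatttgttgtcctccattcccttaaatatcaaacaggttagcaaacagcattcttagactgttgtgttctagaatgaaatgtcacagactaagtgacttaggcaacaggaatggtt
The windows of Acan, Matn3, Matn1, Mia and Hapln1 held neither motif, and 6 of the 12 windows did, 5 of Sox6 and that of Sox5. Of all 32851 windows of this length 16.5% held ACAAAG, 10.7% ACAATG and 25.2% at least 1 of them. The search covers these letters in these windows only.

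Within periosteum, P2, the cells without CD105 and CD200, exceeded P3 in part of the genes. In this pair 5 of the 9 were called higher in P2 and none lower, beside 7.79% and 9.33% of all genes. These were Hapln1 (log2 fold change 4.33, standard error 0.92, adjusted p = 0.00229), Sox9 (3.13, standard error 1.03, adjusted p = 0.0372), Comp (1.74, standard error 0.55, adjusted p = 0.031), Sox5 and Matn1. Acan (3.07, adjusted p = 0.0781), Matn3 (4.22, adjusted p = 0.0706) and Mia (3.12, adjusted p = 0.0684) were not called. Their P2 and P3 libraries did not overlap, but the share of all genes without overlap was not computed. The count was 3 without periosteum P2 replicate 2, P2 replicate 3 or P3 replicate 1, and 2 without P3 replicate 2. Other markers moved the other way or with the genes: 7 of 8 endothelial, 5 of 8 osteoblast and 4 of 8 tenocyte markers were lower in P2 than in P3, the endothelial ones with sums of 535 to 1983 against 19930 to 36714 and Cldn5 at 0 in P2, and 8 of 9 erythroid markers were higher. Their part in the result was not tested.

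Between periosteum P1 and P2 the only gene called was Sox6, lower in P1, where 10.1% of all genes were higher and 8.96% lower. Replicate 2 of P1 was the highest of its group for all 9 genes, for example 14626 against 113 and 1822 for Matn3, and without it 4 genes were called between P1 and P2. The count was 0 without P1 replicate 1, P1 replicate 3, P2 replicate 1 or P2 replicate 3. Osteoblast and tenocyte markers also differed in this pair. All 8 osteoblast markers made up 5.37% to 10.6% of the P1 libraries and 0.0612% to 0.0729% of the P2 libraries, with 7 of 8 called higher in P1, and 6 of 8 tenocyte markers were also higher in P1, with Scx and Ptx4 at 0 in P2. None of the 9 genes was called between P1 and P3 of periosteum by limma, where 1.39% of all genes were higher and 2.79% lower. At an unadjusted p below 0.05, 3 were (Sox5, Hapln1 and Comp, each higher in P1). The share of all genes at that limit was not computed, so this count shows no excess. Without P3 replicate 3 the count of called genes was 1.

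The genes kept different proportions to one another over the 9 periosteum libraries. Mia held 0.451 to 1.27 counts per count of Acan, a 2.82-fold span, and Col2a1, the main collagen of cartilage, 28.7 to 74.3, a 2.59-fold span. Hapln1 spanned 0.279 to 1.69 per count of Acan, Comp 2.92 to 23.6 and Matn3 0.079 to 4.11. Both extremes of Matn3 were in P1 and P2, at 0.079 in P1 replicate 1 and 4.11 in P2 replicate 3, while Comp per Acan was highest in P3 replicate 1 and P1 replicate 1, at 23.6 and 21.7. Over all 27 libraries the gene most like Acan was Mia (r = 0.96), followed by 3110079O15Rik (0.95) and Clec3a (0.95). For Matn3 they were Epyc (0.95), Clec3a (0.94) and Col9a3 (0.93), for Hapln1 Col9a1 (0.95), and for Sox9 Fn1 (0.95), Sdc4 (0.89) and Chad (0.89). Each r is over the same 27 libraries, which share 9 groups, and is given as a description.

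The distance between periosteum and muscle depended on the subpopulation. In P2, 7 of the 9 genes were called higher in periosteum, all but Sox5 and Sox6, beside 10.4% of all genes. In P1, 3 were (Hapln1, Comp and Mia), beside 0.559%, and in P3, 2 were (Acan and Mia), beside 0.851%. None of the 9 was called lower, where 4.34% of all genes were in P1, 17.6% in P2 and 2.65% in P3. The log2 fold change of Acan reached 10.36 in P2 (standard error 1.20, adjusted p = 9.36e-07), against 3.81 in P1 (adjusted p = 0.0685) and 4.70 in P3 (adjusted p = 0.0273), with the same standard error. The count in P1 was 0 without periosteum P1 replicate 2, muscle P1 replicate 1 or muscle P1 replicate 3. In P3 it was 0 without periosteum P3 replicate 2, muscle P3 replicate 2 or muscle P3 replicate 3, 4 without periosteum P1 replicate 2 or periosteum P3 replicate 1, and 5 without periosteum P1 replicate 1. Folds of Acan, Matn3, Hapln1 and Mia against muscle P2 rest on low values there, at most 42.4. Comp, at 98.03 to 345, and Sox9, at 161 to 261, were higher in muscle P2. The fold of Mia, 12.2, ranged from 10.1 to 14.7 over the other settings.

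The difference itself was tested as periosteum against muscle in P1 minus the same in P2, and 5 genes were called, all lower in P1, where 5.70% of all genes were lower and 6.22% higher. Comp had -5.43 (standard error 0.78, adjusted p = 8.01e-05), and the values were -5.75 for Hapln1 (standard error 1.30, adjusted p = 0.00511), -7.51 for Mia (standard error 1.67, adjusted p = 0.00441), -6.55 for Acan (standard error 1.70, adjusted p = 0.0133) and -9.17 for Matn3 (standard error 2.28, adjusted p = 0.00991). No gene was called in the difference between P1 and P3 by limma, where 0.249% of all genes were. Of the 9, 1, Sox6, had an unadjusted p below 0.05, a limit at which the share of all genes was not computed. Muscle P2 had the lowest mean of the muscle groups in all 5 genes and was high in myofibril markers. All 10 markers were lower in periosteum P2, at 11.2% to 12.4% of a library in muscle P2 against 0.00135% to 0.0107%. The part of muscle fibre RNA in these differences was not tested.

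**Figure D4:**
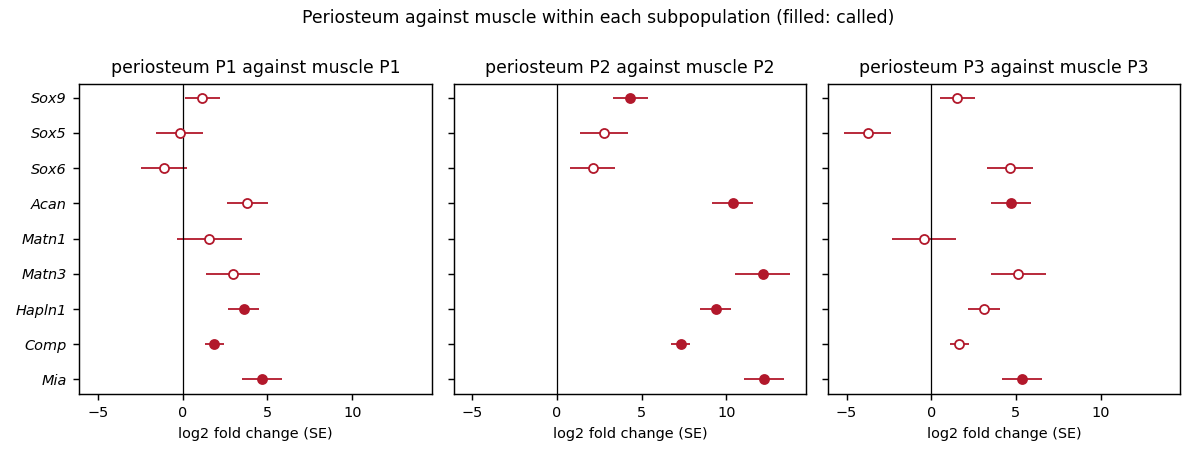
Log2 fold changes of the 9 genes in periosteum against muscle within P1, P2 and P3, with bars for the standard error and filled points for called genes, and with no point for Matn1 in P2 because muscle P2 is listed at 0. In P2 the points of Acan, Matn3, Hapln1 and Mia lie at 10.36, 12.1, 9.35 and 12.2, and in P1 at 3.81, 2.97, 3.60 and 4.68.

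Against bone marrow periosteum was higher in 6 genes in P1, in 7 in P2 and in 6 in P3, beside 1.91%, 4.65% and 2.95% of all genes, and none was lower, where 2.96%, 15.4% and 3.99% of all genes were. Sox9, Acan, Matn3, Hapln1, Comp and Mia were called in all 3 subpopulations, and Matn1 in P2 as well. The call of Sox9 in P1 was lost in 23 of its 37 alternatives, among them leaving out any P1 library of the 3 tissues. Sox9 differed between subpopulations here, with 8.34 on the log2 scale in P2 (adjusted p = 2.38e-06) against 3.48 in P1 (adjusted p = 0.0486) and 4.95 in P3 (adjusted p = 0.00369), each with a standard error of 1.03. Its difference between P1 and P2, -4.86 (standard error 1.45, adjusted p = 0.0414), was the only one called, where 2.66% of all genes were lower and 4.58% higher. The count of 1 became 3 without periosteum P1 replicate 2, 2 without periosteum P2 replicate 1, and 0 without any of 12 other libraries, among them every library of bone marrow P1 and muscle P1. Between P1 and P3 no difference was called by limma, beside 0.537% of all genes. Of the 9, 1, Sox5, had an unadjusted p below 0.05, a limit at which the share of all genes was not computed. Without periosteum P3 replicate 3 the count of called differences was 1.

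In muscle, P1 stood above P2 in the matrix genes. Against muscle P2, 5 of the 9 were called higher in P1 (Acan 5.31, Matn3 5.28, Hapln1 3.70, Comp 5.19 and Mia 5.79 on the log2 scale, with adjusted p of 0.00523, 0.0399, 0.0111, 1.04e-06 and 0.00209) and none lower, beside 3.59% and 4.62% of all genes. The count was 3 without muscle P1 replicate 2 or muscle P2 replicate 2. Myofibril markers again differed, at 0.213% to 0.375% of a library in P1 against 11.2% to 12.4% in P2, while 7 of 8 osteoblast and 7 of 8 tenocyte markers were higher in P1. Their part was not tested. None was called between muscle P1 and P3 by limma, where 0.141% of all genes were higher in P1 and 0.325% lower. Of the 9, 3 had an unadjusted p below 0.05, Sox6, Acan and Comp. The share of all genes at that limit was not computed. Between muscle P2 and P3, Comp (-3.90, standard error 0.55, adjusted p = 2.46e-05) and Mia (-3.75, standard error 1.18, adjusted p = 0.0373) were lower in P2 and Sox6 (4.94, standard error 1.34, adjusted p = 0.0155) was higher, beside 5.61% and 5.55% of all genes. The count of 3 was 1 without muscle P3 replicate 2 or muscle P3 replicate 3. Endothelial markers, which summed to 39396 to 55440 in muscle P3 and 2693 to 10495 in muscle P2, were lower in P2 for 7 of 8 genes, and their part was not tested.

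Compared with the marrow, muscle P1 was called higher in Sox5, Acan, Matn3, Comp and Mia (5 of 9, beside 5.40% of all genes) and lower in none, beside 2.94%. The count was 3 without muscle P1 replicate 1, any muscle P3 library or bone marrow P1 replicate 3, and 2 without muscle P1 replicate 2. In P2, muscle was higher in Sox9 and Comp and lower in Sox6 and Mia, beside 14.1% and 26.1% of all genes, and the count of 4 was 2 without bone marrow P2 replicate 1 or replicate 3. The Mia call there (-3.74) rests on values of 0, 1.01 and 0 in muscle P2. It was lost with a pseudocount of 5 and after quantile normalization, where the log2 fold change was -0.64. In P3, Sox9 and Comp were higher and Sox6 lower, beside 6.14% and 4.25%. Comp was the only gene called higher in muscle in all 3, at 5.75, 2.27 and 5.42 on the log2 scale.

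The marrow groups were also compared with one another. P1 was higher than P2 in Sox9 and Comp (1.72, standard error 0.55, adjusted p = 0.0187) and lower in Sox6, beside 10.4% and 23.7% of all genes. Against P3 it was higher in Hapln1 and lower in Sox6 (-4.56, standard error 1.34, adjusted p = 0.0377), beside 3.46% and 3.14%, and the count of 2 was 1 without replicate 2 or 3 of either group. Between P2 and P3 none was called by limma, where 14.6% of all genes were higher in P2 and 5.38% lower. An unadjusted p below 0.05 was found for 2, Hapln1 and Mia, and the share of all genes at that limit was not computed. The count of called genes rose from 0 to 1 without bone marrow P2 replicate 2, muscle P1 replicate 3, or periosteum P1 replicate 1 or 2.

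Bone marrow P1 combined high Col2a1 with low Acan, Matn3 and Mia. Col2a1 had 143665, 171864 and 89106 normalized counts there, in the range of the 62224 to 359279 of periosteum P1, while Acan had 3.402, 21.3 and 3.43, Matn3 at most 1.69 and Mia at most 18.3. In the same libraries Col11a1 was 66955 to 83666 and Col11a2 81322 to 127433, but Col9a3, a chain of the collagen that coats type II fibrils, was 12.2, 0 and 6.89. Against bone marrow P1, periosteum P1 was called higher in Acan (8.74, standard error 1.20, adjusted p = 5.94e-05), Matn3 (10.02, standard error 1.61, adjusted p = 0.000334) and Col9a3 (10.79, standard error 1.62, adjusted p = 0.00018), and not in Col2a1 (-0.13, standard error 1.06, adjusted p = 1). Osteoblast markers were highest in bone marrow P1, at 18.1% to 23.3% of a library, of which Col1a1, a gene also on the tenocyte list, was the most abundant. Fmod, another tenocyte marker, was lower in bone marrow P1 (482, 819 and 807) than in periosteum P1 (94509, 73525 and 49053). Leukocyte markers made up 0.103% to 0.385%. All 9 erythroid markers were lower in periosteum P1. Their part was not tested.

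**Figure D5:**
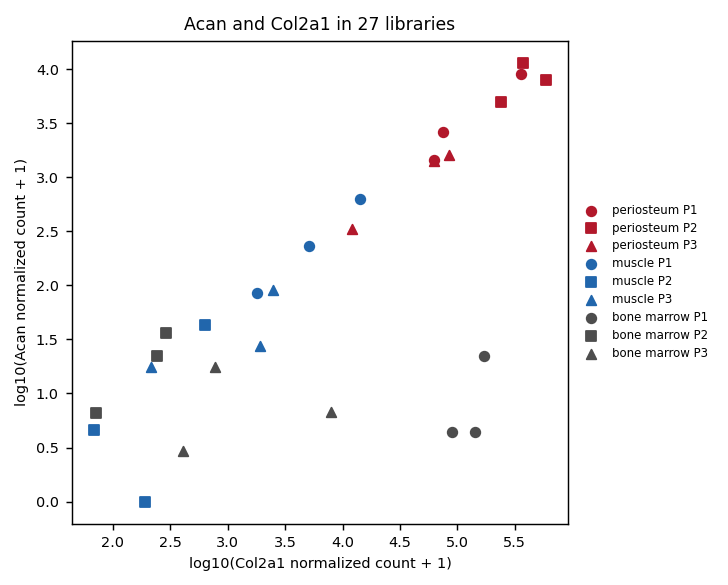
Acan against Col2a1, both as log10(normalized count + 1), 1 point per library, coloured by tissue and shaped by subpopulation. The 9 periosteum libraries combine high values of both genes, and the 3 bone marrow P1 libraries lie at the lower right, with 89106 to 171864 counts of Col2a1 and 3.402 to 21.3 of Acan.

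Other genes of the same matrix were described by lists, with counts beside the shares of all genes given above. Of 7 cartilage collagens, 6 were called higher in periosteum than in muscle and 6 than in bone marrow, with medians of 6.06 and 5.28, for example Col2a1 (6.91 and 5.28) and Col9a3 (8.22 and 9.66). Of 13 other cartilage matrix genes found and tested, 7 were higher and 1 lower than in muscle, and 13 of 13 were higher than in bone marrow. Among them were Fmod, a small collagen-binding proteoglycan (1.79 and 9.14), Chad, a leucine-rich repeat protein (3.23 and 9.40), and Cilp (-1.26, not called, and 8.14). The paralogs of the matrilins, COMP and MIA held 1 of 7 genes higher against muscle, Matn4, and 4 of 7 against bone marrow, Matn4, Thbs2, Thbs3 and Thbs4.

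Genes that build, bind or cut aggrecan were counted next, beside the 3.19% of all genes higher and 17.2% lower than in muscle, and the 4.01% higher and 16.8% lower than in bone marrow. Of 22 genes for chondroitin sulfate synthesis, 1 was called higher in periosteum than in muscle, the sulfate transporter Slc26a2 (2.05, standard error 0.40, adjusted p = 0.000602), and none lower, with a median of -0.25. Against bone marrow 2 were higher, Csgalnact1 and Ugdh, and 1 lower, Chst13. Of 10 genes of hyaluronan aggregates, Has1, Has2 and Has3, the hyaluronan synthases, were called lower in periosteum than in muscle and none higher, while Has1 was called higher than in bone marrow. Has1 (-4.88, standard error 0.79, adjusted p = 8.56e-05) had no overlap with muscle, while Vcan, Cd44 and Hapln4 were not called in either comparison. Among 11 proteases and inhibitors that act on aggrecan or COMP, Adamts4, Adamts5, Adamts12 and Mmp3 were lower and Mmp13 higher than in muscle (4.397, standard error 0.68, adjusted p = 5.42e-05). Against bone marrow 3 were higher, Adamts1, Htra1 and Timp3.

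Of 14 other regulators of chondrocytes, 5 were called higher in periosteum than in muscle (Fgfr3, Pth1r, Runx2, Runx3 and Wwp2) and 3 lower (Bmpr1b, Mef2c and Zfp219). Of all genes, 3.19% were higher and 17.2% lower, and the median of the 14 was -0.67. Wwp2, which hosts a microRNA of cartilage, was 1.58 higher (standard error 0.31, adjusted p = 0.000625) and Runx2, a regulator of bone and of cartilage maturation, 3.17 higher (standard error 0.66, adjusted p = 0.00116). Against bone marrow none of the 14 was higher and 1, Zfp219, was lower, beside 4.01% and 16.8% of all genes. Of 9 further SOX genes tested, none was higher and 4 lower in periosteum than in muscle, Sox10, Sox13, Sox18 and Sox7, and against bone marrow 1 was higher and 1, Sox12, lower. Of these, Sox7 and Sox18 are factors of endothelium. Sox8, the close relative of Sox9, was higher than in bone marrow (4.66, standard error 0.90, adjusted p = 0.000527) and not called against muscle (0.029, standard error 0.90, adjusted p = 0.987).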

How the data were processed

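RNA was sequenced from sorted Prx1-derived cells in 27 libraries, 3 for each of 9 groups, made with SMART-Seq v4 and Nextera XT kits after digestion of muscle for 60 minutes and periosteum for 20 minutes and flushing of marrow. Trimming, STAR alignment and DESeq2 normalization were done by the authors. The deposited values, entered as signal because they are no longer reads, are the authors' normalized counts, whose steps at values below 10 differ from gene to gene (15.1% to 89.5% of such values in a library are distinct), so reads were not recovered and no counting error is given. The genome build and annotation of the authors are not given in the sources used here. Positions and lengths are from GENCODE M21 (GRCm38), which held 29732 of the 30153 identifiers, and promoter windows from RefSeq. A row for transgenes, 0.0047% to 0.213% of a library, was left out.

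Genes at 10 or more in at least 3 libraries were kept, 18442 with all 9 genes among them, and 11711 were removed. limma 3.58.1 in R 4.3.3 was fitted to log2(normalized count + 1) with 1 mean per group and a variance trend, and p values were adjusted by Benjamini-Hochberg over all genes kept. The 25 comparisons were tissues over equal weights of P1, P2 and P3, tissues within a subpopulation, subpopulations within a tissue and 4 differences of these. The fit was tested on simulated data. Named were the 9 genes, the sorting genes, the 4 most abundant genes of each background list, the 2 most abundant of each marker list with any marker at 0 in a group, and the 3 genes most like each of the 9. Genes named as called from a list, Prrx1 and the overlapping genes were chosen after their values were seen. The members and lists were chosen with earlier results of these data known. Alternatives were pseudocounts of 0.1 and 5, no filter or a mean of at least 50, a replicate block, no trend, quantile normalization, rescaled totals, the groups compared alone, a fold limit of 1, and each library left out. Tables were handled in Python 3.11.15 with pandas 2.3.3 and plots were drawn with matplotlib 3.10.9.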

Additional observations from a re-analysis of the deposited data

Results flagged for a closer look

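The contrast of periosteum with muscle differed between P1 and P2 for 5 genes by the test of the difference itself in limma. The log2 values of P1 minus P2 were -6.55 for Acan, -9.17 for Matn3, -5.75 for Hapln1, -5.43 for Comp and -7.51 for Mia, and those of Acan and Hapln1 were no longer called when the groups were compared alone. In the contrast of periosteum with bone marrow Sox9 was -4.86, and this value was not called in 16 of 37 alternatives. No group has more than 3 libraries, so no test for outlying libraries was run, and each library was left out in turn instead. All 6 values rest on the same periosteum P1 and P2 libraries, and P1 replicate 2 was the highest of its group in each of these genes.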

How the results depend on the processing

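Of 87 called values of the 9 genes over 25 comparisons, 48 were called under every alternative, 39 were lost under at least 1 and 0 changed sign. Counts of called genes were within 1.5 times of the reported ones in 838 of 925 alternatives and moved in 87. For periosteum P1 against muscle P1 the count of 3 was 1 with a pseudocount of 0.1 and 0 with the groups compared alone. For periosteum P1 against bone marrow P1, 6 became 3 with the groups alone. Muscle P1 against bone marrow P1 went from 5 to 3 with a pseudocount of 0.1 and to 3 without a filter. Periosteum P3 against muscle P3 went from 2 to 1 with a pseudocount of 0.1, 4 with 5, 5 after quantile normalization, 4 after rescaling and 4 alone. Muscle P3 against bone marrow P3 went from 3 to 5 alone. In periosteum, P1 against P2 went from 1 to 0 with a pseudocount of 0.1, 2 with 5, and 0 without a filter, after rescaling and alone, and P2 against P3 went from 5 to 8 with a pseudocount of 5, 3 after rescaling and 0 alone. Muscle P1 against P2 went from 5 to 3 alone. Bone marrow P1 against P3 went from 2 to 1 with a pseudocount of 0.1 and 1 without a filter, and P2 against P3 from 0 to 1 after quantile normalization, rescaling and alone. The difference of periosteum against muscle between P1 and P2 went from 5 to 3 alone, and that against bone marrow from 1 to 0 with a pseudocount of 0.1, after rescaling and alone, and to 2 after quantile normalization. The cause was not tested.

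With 1 library left out the counts ranged from 3 to 6 for muscle against bone marrow, 0 to 4 for periosteum P1 against muscle P1, 2 to 5 for muscle P1 against bone marrow P1, 2 to 4 for muscle P2 against bone marrow P2 and 0 to 5 for periosteum P3 against muscle P3. They ranged from 0 to 4 for periosteum P1 against P2, 0 to 1 for P1 against P3 and 2 to 6 for P2 against P3, and from 3 to 5 and 1 to 3 for muscle P1 against P2 and P2 against P3. In bone marrow they were 1 to 3 for P1 against P3 and 0 to 1 for P2 against P3, and for the differences against bone marrow 0 to 3 (P1 minus P2) and 0 to 1 (P1 minus P3).

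Same-numbered libraries did not deviate together (mean r of 0.000242 over 36 pairs of groups, from -0.0592 to 0.0502). A small effect of a shared animal could give such values too, so the check cannot show whether the numbers pair the libraries. The replicate block lost 6 called values and gained 1, and the difference against bone marrow between P1 and P2 went from 1 to 0 with the block. Depth is unknown, and values near 0 set the size of the largest folds.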
